A study of Mus musculus with 6 samples.

Results

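Interferon-induced genes and the factors that drive them were followed across 6 RNAseq libraries of cells sorted as neural crest cells (NCCs), 3 control and 3 BAF155/170-deficient. Members were the rows of the count table whose Ensembl identifier maps in GENCODE M21 to a protein-coding symbol of the Ifit, Ifi, Gbp, Oas, Oasl, Irf, Stat, Irgm, Iigp or Mx families followed by a digit, together with Isg15, Usp18, Rsad2, Zbp1 and Bst2. This gave 73 genes of 46983 rows, of which 67 passed the filter on low counts among 13961 tested genes. The other 6, mostly genes of the Oas1 cluster, averaged at most 0.428 CPM, that is, counts scaled to a common library size. A further 6 genes carry such a symbol but another biotype in this annotation and were not members, among them Mx2 and Ifi30, with means of 135 and 105 CPM.

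The GFP+ cells were sorted by FACS from embryos at E11.25, where Wnt1 Cre activates a green reporter (Rosa26 mTmG/+) in the neural crest and also in the dorsal neural tube. Control embryos were BAF155 flox/+ and BAF170 flox/+, so they too carry a floxed copy of each gene, and deficient embryos were BAF155 flox/flox and BAF170 flox/flox. Both groups carried Wnt1 Cre/+ and Rosa26 mTmG/+. BAF155 and BAF170 are core subunits of the BAF chromatin remodelling complex. Per the methods, cells were collected from 3 embryos of each group, while the labels do not tie a library to an embryo.

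Smarcc1, which encodes BAF155, stood at 42.1, 55.0 and 35.1 CPM in control and 29.4, 26.4 and 24.5 CPM in deficient libraries (log2 fold change −0.71 ± 0.16, SE, adjusted p = 0.0676), with no overlap between the groups. Smarcc2, which encodes BAF170, stood at 91.8, 89.9 and 92.9 CPM in control and 85.9, 82.3 and 86.8 CPM in deficient libraries (log2 fold change −0.11 ± 0.06, SE, adjusted p = 0.251), also with no overlap. Counts cover the whole gene and can include exons outside the deleted part. The labelled cell type was then read against its markers. The 38 neural crest and other embryonic markers summed to between 197 and 375 CPM in control and between 111 and 180 CPM in deficient libraries, while 12 macrophage markers summed to between 12105 and 14037 CPM and between 14169 and 15453 CPM. Sox10, a defining neural crest factor, stood at 4.36, 7.76 and 2.22 CPM in control and 1.49, 0.855 and 1.19 CPM in deficient libraries. Csf1r, the receptor of the main macrophage growth factor, stood at 395, 355 and 410.3 CPM in control and 419.9, 435 and 465 CPM in deficient libraries. Thus the libraries carried far more macrophage marker RNA than neural crest marker RNA in both groups, which goes against the label, and the cells are called sorted cells here. In bulk RNA, fewer cells of a type and less RNA per cell cannot be told apart. Library totals ran from 8191219 to 19808620 counts, with all 3 deficient libraries deeper than the control libraries.

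Interferons are cytokines that cells release on sensing viruses or other danger. Type I interferons (alpha and beta) signal through Ifnar1 and Ifnar2 and the kinases Jak1 and Tyk2 to a complex with Stat2 and Irf9, which binds an interferon-stimulated response element (ISRE). Interferon gamma signals through Ifngr1 and Ifngr2 and the kinases Jak1 and Jak2, and its targets carry a gamma-activated site (GAS). Many targets respond to both. Macrophages respond strongly to either, and keep factors such as Irf8 and Irf5 in the absence of infection. Below, type I effectors are the Ifit, Oas, Oasl, Mx, Ifi27, Ifi35 and Ifi44 genes with Isg15, Usp18, Rsad2, Zbp1 and Bst2. Gamma effectors are the guanylate-binding proteins (Gbp genes) and the immunity-related GTPases Irgm1, Irgm2, Iigp1 and Ifi47. The Ifi200 genes of the PYHIN family, whose products bind DNA, form a group of their own.

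Promoter sequence bears on this grouping, since the ISRE and the GAS mark the type I and the gamma route. The window from 250 bases before to 50 bases after the start of each gene was read from RefSeq on GRCm38.p6 for 55 of the 73 members, in 66 windows. Windows were searched on both strands for an ISRE core, GAAANNGAAA, and for a GAS core, TTCNNNGAA, which reads the same on both strands. The ISRE core was in 47.0% of the 66 member windows, against 3.44% of all 32851 windows. The GAS core was in 18.2% of member windows, against 8.30% of all windows. Among gamma effectors 7 of 9 windows held an ISRE core and 3 of 9 a GAS core, beside 13 of 23 and 4 of 23 windows of the type I effectors. Of the 11 Ifi200 windows, 8 held an ISRE core and 1 a GAS core. Of the 11 Irf windows, 1 held an ISRE core and 3 a GAS core, and of the 9 Stat windows, 2 held an ISRE core and none a GAS core. Of the 3 windows of Irf2bp cofactors, none held an ISRE core and 1 a GAS core. Thus the ISRE core was in most windows of the gamma list as well as of the type I list. The difference between these lists was not tested. A match is a run of letters in this window and not a mapped binding site. Among the members with no entry were Mx1, Oas1d, Oas1e, Oas2, Usp18, Zbp1, Ifi27, Ifi27l2a, Ifi27l2b, Ifi204, Iigp1, Gbp4, Gbp6, Gbp8, Gbp9 and Gbp10.

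The stretches below show sites of some effectors of each list and of a pair of Irf factors. They were picked among members whose windows hold a core, and not by level. Windows of the abundant Ifit2, Oasl1, Oasl2, Ifi209 and Irf7 held no ISRE core, and of these genes only Ifit2 had a window with a GAS core. Each stretch is written 5′ to 3′ on the strand of its gene. Capitals mark every ISRE or GAS core upstream of the start, where neighbouring cores can overlap and a core on the other strand reads as its reverse complement, with up to 20 bases on either side of the outermost cores. Isg15 (chr4:156200855-156200916, minus strand) has 3 overlapping ISRE cores, Rsad2 (chr12:26456543-26456592, minus strand) has 1, and Ifit1 (chr19:34640765-34640833, plus strand) has 2.
Isg15: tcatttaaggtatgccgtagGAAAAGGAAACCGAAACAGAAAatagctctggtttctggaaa
Rsad2: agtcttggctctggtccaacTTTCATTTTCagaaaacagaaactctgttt
Ifit1: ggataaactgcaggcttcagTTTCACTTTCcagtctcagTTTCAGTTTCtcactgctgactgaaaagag
Among gamma effectors, Gbp2 (chr3:142620584-142620633, plus strand) has 1 ISRE core, Irgm1 (chr11:48871421-48871470, minus strand) has 2 that overlap, and Gbp7 (chr3:142530210-142530312, plus strand) has 2 GAS cores upstream of 1 ISRE core.
Gbp2: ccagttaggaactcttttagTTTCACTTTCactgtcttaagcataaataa
Irgm1: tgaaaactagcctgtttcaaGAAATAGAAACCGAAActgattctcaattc
Gbp7: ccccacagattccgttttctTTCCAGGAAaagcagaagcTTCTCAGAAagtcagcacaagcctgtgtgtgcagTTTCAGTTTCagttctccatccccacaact
The Ifi200 gene Ifi206 (chr1:173491329-173491378, minus strand) has 1 ISRE core, while Irf1 (chr11:53769904-53769952, plus strand) has 1 GAS core and Irf8 (chr8:120736167-120736233, plus strand) has 2.
Ifi206: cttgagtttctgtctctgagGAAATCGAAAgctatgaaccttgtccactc
Irf1: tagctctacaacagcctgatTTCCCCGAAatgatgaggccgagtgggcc
Irf8: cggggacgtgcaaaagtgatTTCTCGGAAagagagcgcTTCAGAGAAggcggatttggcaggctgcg

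Interferon-induced genes were among the abundant transcripts of both groups. The members held between 3.38% and 5.02% of all counts of a library. Per kilobase of exon, and averaged over the 6 libraries, Isg15, a ubiquitin-like modifier, was the highest member at 2758 CPM per kb, followed by Gbp2 at 1427, Bst2 at 956 and Ifit2 at 914 CPM per kb. Summed over the list, type I effectors stood at 17514 ± 1174 CPM (SD, n = 3) in control and 20198 ± 887 CPM (SD, n = 3) in deficient libraries. Gamma effectors summed to 9735 ± 698 CPM (SD, n = 3) and 11254 ± 531 CPM (SD, n = 3). The lowest deficient library lay above the highest control library for both sums. In the plot of summed levels, the 2 lists run in parallel with the macrophage markers, and embryonic markers run the other way.

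**Figure D1:**
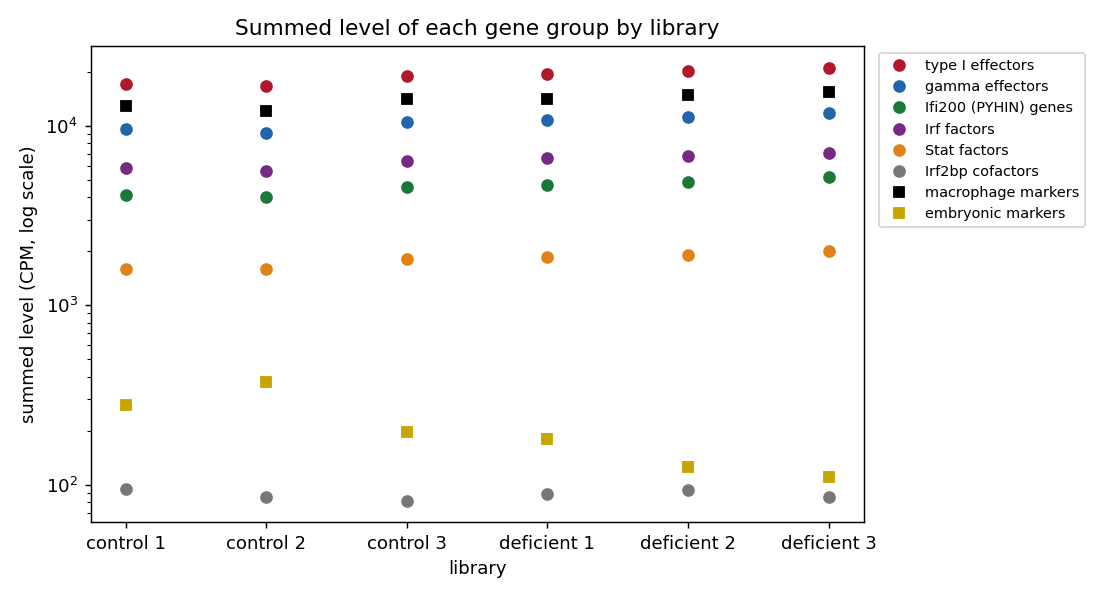
Summed level of each gene group (CPM, log scale) in the 3 control and 3 deficient libraries, with 1 point per library, circles for the member groups and squares for marker lists. Type I effectors sit between 16586 and 21092 CPM and gamma effectors between 9153 and 11789 CPM, while embryonic markers sit between 111 and 375 CPM.

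Fold changes between the groups were small and nearly uniform over these genes. With the adjusted p threshold at 0.1, 23 of the 67 tested members rose in deficient libraries and 0 fell, where 4.18% of all tested genes were called higher and 7.75% lower (edgeR quasi-likelihood test, Benjamini-Hochberg over all tested genes). At an unadjusted p under 0.05 there were 47 members higher and 1 lower, Irf4. No member passed the thresholds of the study's methods, which ask for the same adjusted p, a log2 fold change of 0.58 or more in either direction and a mean level from 2 CPM up, and which 4.94% of all tested genes passed. The median log2 fold change was 0.20 over the tested members and −0.02 over all tested genes. These comparisons are not matched for level, and most members were abundant. All 47 members of at least 100 CPM had log2 fold changes above 0 (median 0.21). So did 92.8% of the 1395 tested genes of that level, whose median was 0.17. The share called among genes of that level was not computed. Deficient libraries lay wholly above control libraries for 44 tested members and wholly below for 1, against 15% and 16.4% of all tested genes. The count of 23 rested on particular libraries: it was 0 when control replicate 1, control replicate 2 or deficient replicate 3 was left out, 1 when deficient replicate 2 was, and 48 when control replicate 3 was. It was 44 with DESeq2, 0 with library totals in place of TMM and 0 with libraries scaled to the macrophage markers.

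**Figure D2:**
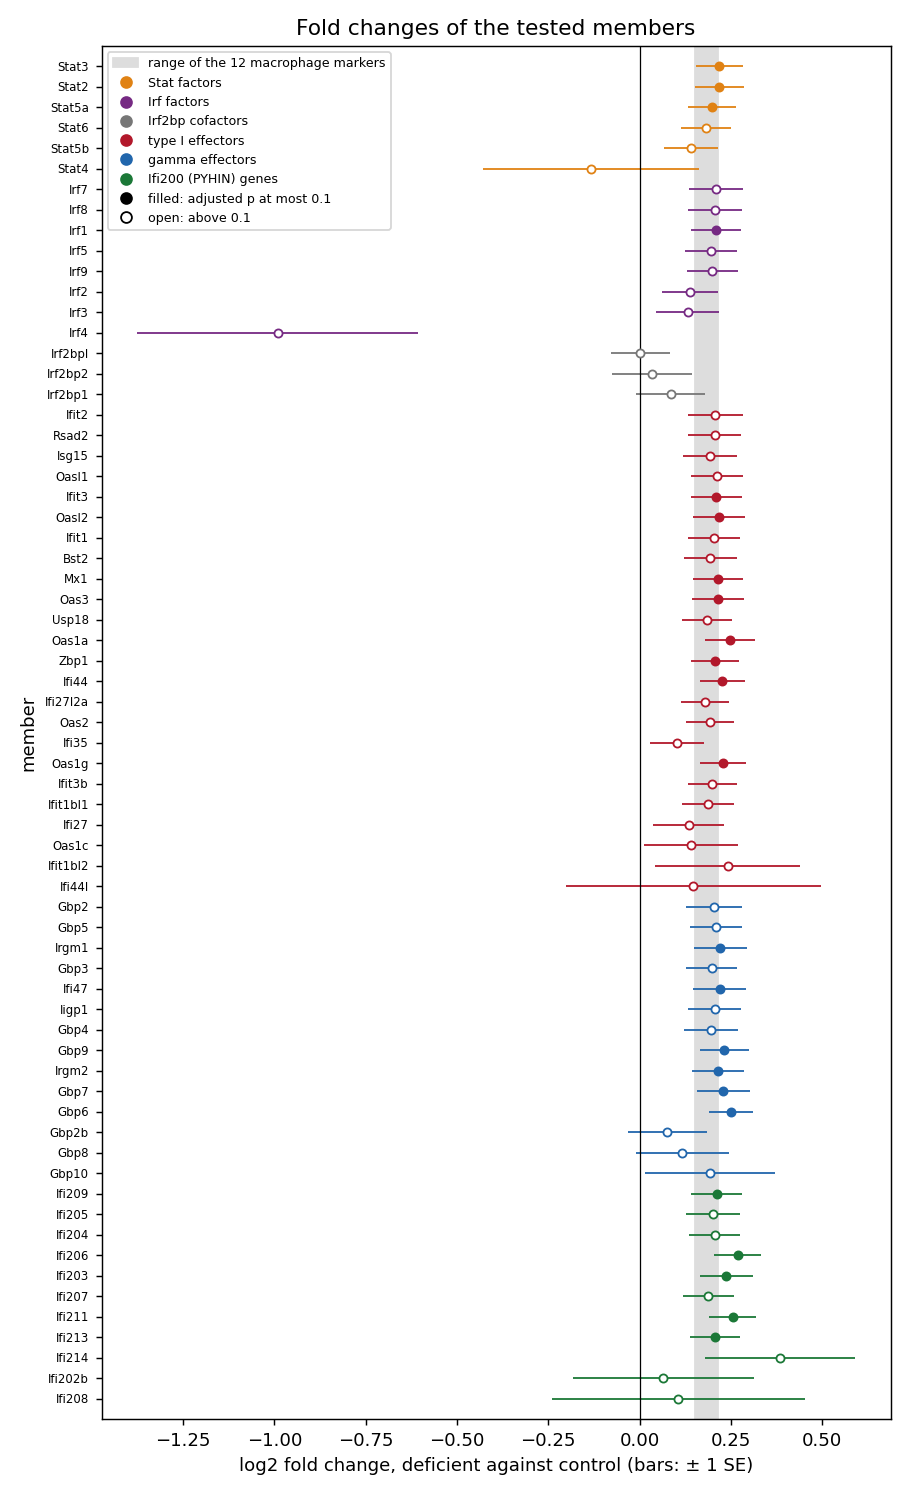
Log2 fold change of 66 tested members, deficient against control (points, with bars of 1 SE), coloured by group, with filled points for an adjusted p of at most 0.1. Most points lie on or beside the grey band, which spans 0.15 to 0.21, the range of the 12 macrophage markers, and Irf4 stands apart at −0.99.

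Transcripts of the interferon genes that were read were scarce. Of the alpha interferon genes only Ifna1, Ifna2, Ifna4 and Ifna5 were on the list, and the others were not looked at. Of 11 ligand genes, 5 had no count in any library, and only Ifng passed the filter. Ifng, the gene of interferon gamma, had 29, 12 and 59 counts in control and 53, 86 and 98 counts in deficient libraries (log2 fold change 0.52 ± 0.32, SE, adjusted p = 0.325). Ifnb1, the gene of interferon beta, had 3, 2 and 6 counts in control and 4, 8 and 14 counts in deficient libraries, at most 0.665 CPM. Ifnk, a type I interferon of skin, had 0, 0 and 7 counts in control and 3, 2 and 0 counts in deficient libraries. The groups overlapped for all 3 of these genes.

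Receptors and kinases of the pathway were well detected, and 4 of 8 tested genes rose while none fell, against 4.18% and 7.75% of all tested genes. Ifnar1 stood at 126, 112 and 134 CPM in control and 133, 131 and 147 CPM in deficient libraries (log2 fold change 0.14 ± 0.08, SE, adjusted p = 0.249), with overlap between the groups. Its partner Ifnar2 rose, from 109, 97.0 and 114 CPM in control to 123, 123 and 128 CPM in deficient libraries (log2 fold change 0.23 ± 0.07, SE, adjusted p = 0.0856). Of the receptor chains for interferon gamma, Ifngr1 stood at 19.8, 21.5 and 20.6 CPM in control and 21.5, 22.4 and 23.5 CPM in deficient libraries (log2 fold change 0.13 ± 0.09, SE, adjusted p = 0.396). Ifngr2, the other chain, stood at 188, 182 and 199.8 CPM in control and 198, 215 and 227 CPM in deficient libraries (log2 fold change 0.17 ± 0.07, SE, adjusted p = 0.134). Il10rb, a chain shared by the interferon lambda receptor, stood at 104, 101 and 111 CPM in control and 114, 124 and 122 CPM in deficient libraries (log2 fold change 0.18 ± 0.06, SE, adjusted p = 0.102). The lambda-specific chain Ifnlr1 reached at most 0.164 CPM and was not tested. All 3 kinases passed the test. Jak1, which serves both routes, stood at 311, 277 and 329 CPM in control and 346, 352 and 372 CPM in deficient libraries (log2 fold change 0.22 ± 0.07, SE, adjusted p = 0.0938). Jak2, the kinase of the gamma route, stood at 397, 391 and 433 CPM in control and 449, 461 and 498 CPM in deficient libraries (log2 fold change 0.20 ± 0.07, SE, adjusted p = 0.0940). Tyk2, the kinase of the type I route, stood at 113, 111 and 117 CPM in control and 132, 129 and 136 CPM in deficient libraries (log2 fold change 0.22 ± 0.06, SE, adjusted p = 0.0702).

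Of the Stat factors, 3 rose and none fell, against 4.18% and 7.75% of all tested genes. Stat3, a transducer of interleukin signals, had the highest CPM of the family and stood at 615, 613 and 676 CPM in control and 723, 723 and 769.7 CPM in deficient libraries (log2 fold change 0.22 ± 0.06, SE, adjusted p = 0.0842). Stat2, a subunit of the complex that binds the ISRE, stood at 539, 538 and 612 CPM in control and 639, 652 and 676 CPM in deficient libraries (log2 fold change 0.22 ± 0.07, SE, adjusted p = 0.0904). Stat5a, which acts below growth factor receptors, stood at 98.4, 98.2 and 109 CPM in control and 118, 112 and 122 CPM in deficient libraries (log2 fold change 0.20 ± 0.06, SE, adjusted p = 0.0965). In all 3 the lowest deficient library lay above the highest control library, as it did for 15% of all tested genes. The log2 fold changes of Stat6 and Stat5b were 0.18 and 0.14, with adjusted p of 0.121 and 0.237. Stat4, a factor of lymphoid cells, stood at 2.55, 2.81 and 3.28 CPM in control and 2.11, 2.20 and 3.51 CPM in deficient libraries (log2 fold change −0.13 ± 0.30, SE, adjusted p = 0.811).

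Irf7 and Irf8 led the Irf factors by CPM, and 1 of 8 tested factors, Irf1, rose, against 4.18% of all tested genes. Irf7, which amplifies type I interferon production, stood at 2476, 2346 and 2698 CPM in control and 2811, 2884 and 2994 CPM in deficient libraries (log2 fold change 0.21 ± 0.07, SE, adjusted p = 0.109). Irf8, a lineage factor of macrophages, stood at 1875, 1807 and 2086 CPM in control and 2172, 2194 and 2293 CPM in deficient libraries (log2 fold change 0.21 ± 0.07, SE, adjusted p = 0.108). Irf1, a direct target of the gamma route, stood at 955, 931 and 1059 CPM in control and 1087, 1138 and 1183 CPM in deficient libraries (log2 fold change 0.21 ± 0.07, SE, adjusted p = 0.0971). The groups did not overlap for these 3 factors, although only Irf1 passed the test. Of the 8, 4 lay wholly above control libraries and 1 wholly below, against 15% and 16.4% of all tested genes. Irf7 and Irf8 did pass with DESeq2 (adjusted p = 0.0154 and 0.0180) and with limma-voom (adjusted p = 0.0849 and 0.0876), and not with library totals in place of TMM (adjusted p = 0.284 and 0.279). Irf5, Irf9, Irf2 and Irf3 had log2 fold changes of 0.20, 0.20, 0.14 and 0.13, and none passed. Irf4, a factor of lymphocytes and of some macrophages and dendritic cells, stood at 2.77, 1.87 and 1.48 CPM in control and 1.17, 1.10 and 0.807 CPM in deficient libraries (log2 fold change −0.99 ± 0.38, SE, adjusted p = 0.129). Every deficient library was below every control library. An exact permutation test of its log2 CPM gave p = 0.1, the smallest that 3 libraries against 3 allow. Any full separation of the groups gives this value, so the test adds nothing to it. Irf4 averaged under the 2 CPM of the study's threshold, and its log2 fold change was 0.02 with libraries scaled to embryonic markers and −1.18 with libraries scaled to macrophage markers. Its adjusted p fell to 0.0759 without control replicate 3 and was 0.404 without control replicate 1.

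The corepressors Irf2bpl, Irf2bp2 and Irf2bp1, found in many cell types, had log2 fold changes near 0. Irf2bpl stood at 42.8, 37.3 and 38.6 CPM in control and 41.2, 40.7 and 37.2 CPM in deficient libraries (log2 fold change 0.0021 ± 0.08, SE, adjusted p = 0.990). Irf2bp2 stood at 32.0, 27.0 and 23.7 CPM in control and 27.5, 30 and 27.1 CPM in deficient libraries (log2 fold change 0.03 ± 0.11, SE, adjusted p = 0.870). Irf2bp1 stood at 20.1, 21.3 and 19.4 CPM in control and 20.2, 22.4 and 21.6 CPM in deficient libraries (log2 fold change 0.09 ± 0.09, SE, adjusted p = 0.598). None passed the test and the groups overlapped for each. Their signs depend on the scaling: with libraries scaled to macrophage markers they were at −0.18, −0.16 and −0.11. The difference from the other factors was not tested.

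Of 24 tested type I effectors, 8 rose, none fell and 16 did not pass the test. Of all tested genes, 4.18% were called higher and 7.75% lower. Deficient libraries lay wholly above control libraries for 19 of the 24, against 15% of all tested genes. Log2 fold changes of the 24 ran from 0.10 to 0.25 with a median of 0.21. The 3 highest by CPM did not pass. Ifit2, which binds RNA lacking the host's cap modification, stood at 3237, 3181 and 3577 CPM in control and 3658, 3880.4 and 4005 CPM in deficient libraries (log2 fold change 0.21 ± 0.08, SE, adjusted p = 0.115). Rsad2 (viperin), an antiviral radical SAM enzyme, stood at 2449, 2432 and 2723 CPM in control and 2813, 2923 and 3037 CPM in deficient libraries (log2 fold change 0.21 ± 0.07, SE, adjusted p = 0.109). Isg15 stood at 1897, 1843 and 2096 CPM in control and 2115, 2235 and 2326 CPM in deficient libraries (log2 fold change 0.19 ± 0.07, SE, adjusted p = 0.123). For each of the 3, control replicate 3 was the highest control library and still lay below every deficient library.

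Among the 8 that rose, Ifit3, a partner of the other Ifit proteins, stood at 1176, 1162 and 1290.3 CPM in control and 1337, 1378 and 1485 CPM in deficient libraries (log2 fold change 0.21 ± 0.07, SE, adjusted p = 0.0986). Oasl2, an oligoadenylate synthetase-like protein, stood at 959, 929 and 1073 CPM in control and 1093, 1159 and 1193 CPM in deficient libraries (log2 fold change 0.22 ± 0.07, SE, adjusted p = 0.0965). Mx1, a dynamin-like GTPase that blocks viruses, stood at 784, 747 and 857 CPM in control and 881, 928 and 963 CPM in deficient libraries (log2 fold change 0.22 ± 0.07, SE, adjusted p = 0.0944). These effectors act at separate steps of viral replication. Oas3, an enzyme that makes oligoadenylate to activate RNase L, stood at 701, 638 and 756 CPM in control and 783, 804 and 845 CPM in deficient libraries (log2 fold change 0.22 ± 0.07, SE, adjusted p = 0.0995). Oas1a stood at 480.3, 458 and 516 CPM in control and 559, 554 and 616 CPM in deficient libraries (log2 fold change 0.25 ± 0.07, SE, adjusted p = 0.0780). Its near-identical neighbour Oas1g stood at 200.1, 199 and 216 CPM in control and 231, 236 and 255 CPM in deficient libraries (log2 fold change 0.23 ± 0.06, SE, adjusted p = 0.0773). Oas1a and Oas1g, like Ifit3 and Ifit3b, can share reads, so the split between them is uncertain. Zbp1, a sensor of left-handed nucleic acid, stood at 467, 458 and 523 CPM in control and 539, 556 and 577 CPM in deficient libraries (log2 fold change 0.21 ± 0.07, SE, adjusted p = 0.0949). Ifi44 stood at 306, 293 and 321 CPM in control and 340.1, 362 and 375 CPM in deficient libraries (log2 fold change 0.23 ± 0.06, SE, adjusted p = 0.0776). In each of the 8 every deficient library was above every control library.

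Among the 16 others, Oasl1, Ifit1, Bst2, Usp18, Ifi27l2a, Oas2, Ifit3b and Ifit1bl1 had log2 fold changes between 0.18 and 0.21 and groups that did not overlap. Of all tested genes, 15% lay wholly higher in deficient libraries. Bst2 (tetherin) holds budding virions at the cell surface and Usp18 removes Isg15 from proteins. Ifi35, Ifi27, Oas1c, Ifit1bl2 and Ifi44l had groups that overlapped. Ifi35 had the smallest log2 fold change of the list, 0.10, with 16.8% of its exonic bases shared with a gene on the other strand.

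Of 14 gamma effectors, 6 rose, none fell and 8 did not pass the test. Of all tested genes, 4.18% were called higher and 7.75% lower. Deficient libraries lay wholly above control libraries for 10 of the 14, against 15% of all tested genes. Log2 fold changes of the 14 ran from 0.08 to 0.25 with a median of 0.21. Guanylate-binding proteins and immunity-related GTPases attack the membranes of vacuoles that hold parasites or bacteria. Gbp2 stood at 3278, 3139.9 and 3598 CPM in control and 3679, 3856 and 3993 CPM in deficient libraries (log2 fold change 0.20 ± 0.08, SE, adjusted p = 0.121). Gbp5, which also promotes inflammasome assembly, stood at 1423, 1391 and 1578 CPM in control and 1628, 1669.6 and 1779 CPM in deficient libraries (log2 fold change 0.21 ± 0.07, SE, adjusted p = 0.103). Irgm1, a regulator of the GTPases of this family, stood at 951, 871 and 1019.7 CPM in control and 1051, 1099 and 1165 CPM in deficient libraries (log2 fold change 0.22 ± 0.07, SE, adjusted p = 0.0975). Only the last of these 3 passed the test, although the groups were apart in each. Irgm2, a second regulator, stood at 292, 279 and 324 CPM in control and 327, 345 and 367 CPM in deficient libraries (log2 fold change 0.22 ± 0.07, SE, adjusted p = 0.0971). Ifi47, an immunity-related GTPase, stood at 729, 698 and 822 CPM in control and 832, 879.8 and 908 CPM in deficient libraries (log2 fold change 0.22 ± 0.07, SE, adjusted p = 0.0985). Gbp9 stood at 373, 370.4 and 418 CPM in control and 432, 457 and 477 CPM in deficient libraries (log2 fold change 0.23 ± 0.07, SE, adjusted p = 0.0833). These 3 rose by close to the same size. Gbp7 stood at 224, 200 and 239 CPM in control and 246, 261 and 271 CPM in deficient libraries (log2 fold change 0.23 ± 0.07, SE, adjusted p = 0.0924). Gbp6 stood at 188, 182 and 197 CPM in control and 218, 219.6 and 238 CPM in deficient libraries (log2 fold change 0.25 ± 0.06, SE, adjusted p = 0.0660). Gbp6 had the smallest adjusted p among the members, together with Ifi206, and shares 29.0% of its exonic bases with Gm43302 on the same strand. Gbp3, Iigp1 and Gbp4 had log2 fold changes between 0.20 and 0.21 and did not pass, and the low Gbp2b, Gbp8 and Gbp10 had 0.08, 0.12 and 0.19. The groups overlapped for Gbp4 and for these low genes. Gbp genes lie in clusters of close paralogs, so counts may be split among them.

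Of 11 Ifi200 genes, 5 rose, none fell and 6 did not pass the test, with a median log2 fold change of 0.21. Ifi209 stood at 929, 867 and 987 CPM in control and 1022, 1065 and 1136 CPM in deficient libraries (log2 fold change 0.21 ± 0.07, SE, adjusted p = 0.0978). Ifi205 stood at 711, 728 and 831 CPM in control and 822, 878 and 908 CPM in deficient libraries (log2 fold change 0.20 ± 0.07, SE, adjusted p = 0.117). Ifi204, a relative of the human DNA sensor IFI16, stood at 707, 685 and 772 CPM in control and 785, 825 and 884 CPM in deficient libraries (log2 fold change 0.21 ± 0.07, SE, adjusted p = 0.102). Of these 3, only Ifi209 passed the test, and the groups overlapped for Ifi205. Ifi206 stood at 458, 444 and 497 CPM in control and 543, 554 and 589 CPM in deficient libraries (log2 fold change 0.27 ± 0.06, SE, adjusted p = 0.0660). Ifi203 stood at 402, 413 and 464 CPM in control and 490.4, 479 and 539 CPM in deficient libraries (log2 fold change 0.24 ± 0.07, SE, adjusted p = 0.0901). Ifi211 stood at 304, 291 and 329 CPM in control and 359.6, 355 and 388 CPM in deficient libraries (log2 fold change 0.25 ± 0.07, SE, adjusted p = 0.0727). Groups were apart for these 3, with deficient replicate 3 the highest library. Ifi213 stood at 223, 206 and 236 CPM in control and 244, 249 and 275 CPM in deficient libraries (log2 fold change 0.21 ± 0.07, SE, adjusted p = 0.0995), again with the groups apart. Ifi207 had a log2 fold change of 0.19. Ifi214 had the largest log2 fold change of all members, 0.38 ± 0.20 (SE), but its groups overlapped and it did not pass the test (adjusted p = 0.268). Ifi202b and Ifi208 were low, with means under 4 CPM. Reads of these closely related genes may also be split.

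Other genes of the pathway were read from lists written for this purpose. Beside the counts below, 4.18% of all tested genes were called higher and 7.75% lower. Of 41 further interferon-induced genes, 15 rose and 0 fell, all 41 with log2 fold changes above 0 (median 0.20). Log2 fold changes above 0 were also held by 92.8% of the 1395 tested genes of at least 100 CPM. Xaf1 had the smallest adjusted p of the 41, at 212, 207 and 232 CPM in control and 252, 261 and 279 CPM in deficient libraries (log2 fold change 0.28 ± 0.06, SE, adjusted p = 0.0631). The others that rose were Cmpk2, Trim30a, Parp12, Parp14, Dtx3l, Tgtp1, Tgtp2, Lgals3bp, Ly6e, Trafd1, Shisa5, Pml, Slfn8 and Ddx60, with log2 fold changes from 0.20 to 0.27. Of 17 tested sensors and their adaptors, 2 rose, the RIG-I family member Dhx58 at 0.23 and the kinase Ikbke at 0.20. Of 12 tested feedback genes, 1 rose, the phosphatase Ptpn6 at 0.21, and 0 fell. Their median was 0.09, with 7 above 0 and 5 below. Deficient libraries lay wholly above control libraries for 3 of the 12 and wholly below for 2, against 15% and 16.4% of all tested genes. The 2 below were Pias3 at −0.28 and Ptpn11 at −0.12, and neither passed the test.

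Type I and gamma effectors kept nearly the same proportion in every library. The summed CPM of gamma effectors was 0.557, 0.552 and 0.558 of that of type I effectors in control libraries and 0.555, 0.557 and 0.559 in deficient libraries, so the groups overlapped (0.556 ± 0.0034 and 0.557 ± 0.0018, SD, n = 3). The ratio of Gbp2 to Ifit2, the most counted gene of each list, ran from 0.987 to 1.013 over the 6 libraries. The ratio of Irf8 to Irf7 ran from 0.757 to 0.773 and that of Irf1 to Irf7 from 0.386 to 0.397. That of Stat3 to Stat2 ran from 1.10 to 1.14. The median log2 fold changes of the type I and gamma lists were both 0.21. These are ratios of CPM, not of levels per length, and they are descriptions with no test.

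**Figure D3:**
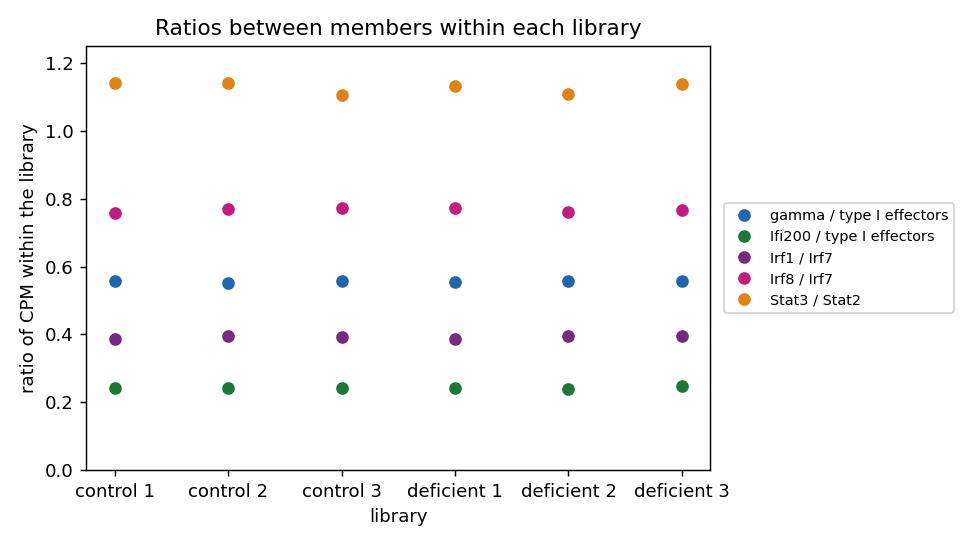
Ratio of CPM between member groups or genes within each library (vertical axis from 0), with 1 point per library for 3 control and 3 deficient libraries. Gamma against type I effectors stays between 0.552 and 0.559, and Stat3 against Stat2 between 1.10 and 1.14.

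Macrophage markers and most other abundant genes also had small positive log2 fold changes. The 12 macrophage markers had log2 fold changes from 0.15 to 0.21 with a median of 0.19, all above 0, and 1 (Adgre1) passed the test. Per unit of macrophage markers, type I effectors stood at 1.35 ± 0.0213 (SD, n = 3) in control and 1.36 ± 0.0011 (SD, n = 3) in deficient libraries, with the 2 ranges overlapping. Gamma effectors stood at 0.748 ± 0.0079 and 0.760 ± 0.0030 (SD, n = 3) of the macrophage markers, and here the groups did not overlap, with control libraries at most 0.756 and deficient libraries at least 0.757. With libraries scaled to the macrophage markers, no member passed the test (2 at an unadjusted p under 0.05), 47 of 67 lay above 0, and the medians of the type I and gamma lists were both 0.02 while the median of all tested genes was −0.20. Of 47 members with a mean of at least 100 CPM, 46 had a log2 fold change between 0.15 and 0.30 (median 0.21), as did 61.9% of 1395 tested genes of that level (median 0.17). At 500 CPM or more this was so for all 29 members and for 88.0% of 241 genes. Control replicate 2 was the lowest library for 44 of the 47 members and for 71.3% of the 1395 genes, and deficient replicate 3 was the highest for 44 of the 47 and 76.9%.

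**Figure D4:**
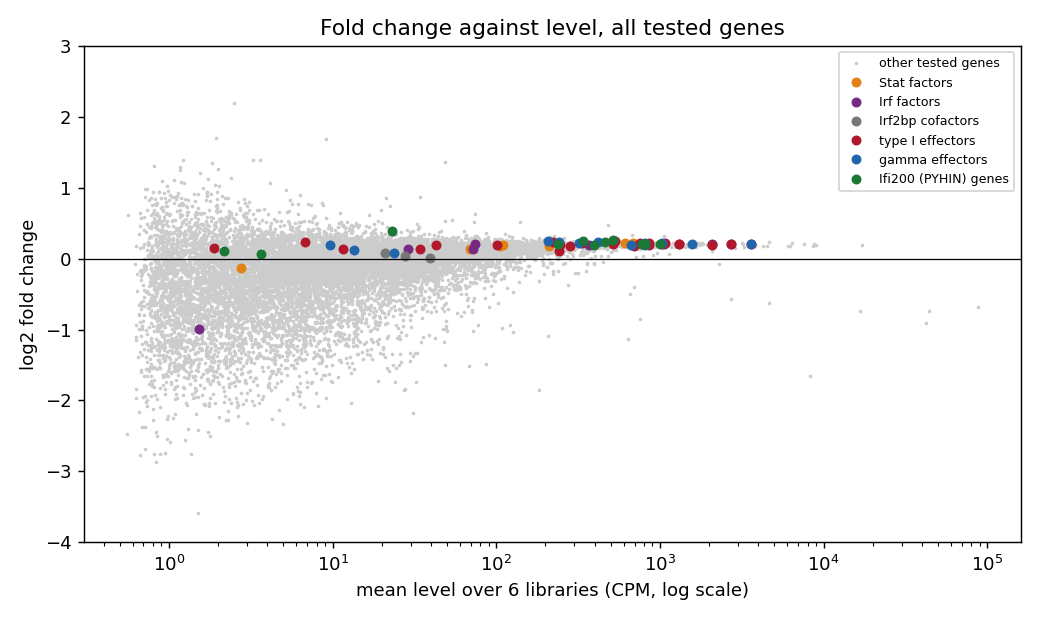
Log2 fold change, deficient against control, against mean CPM over 6 libraries (log scale) for all 13961 tested genes (grey), with the 67 tested members coloured by group. Members of at least 100 CPM lie on the narrow band of abundant genes near 0.20, and Irf4 lies at the low-count end at −0.99.

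Embryonic markers moved the other way: all 34 tested of 38 had log2 fold changes below 0, with a median of −0.96. Of the 34, 13 fell and 0 rose, against 7.75% and 4.18% of all tested genes. With libraries scaled to these markers, 66 members passed the test as higher, with a median of 1.19 for type I and gamma effectors against 0.98 for all tested genes. Other cell types were sparse. Summed over each list, erythroid markers (9 genes) stood between 17.2 and 67.6 CPM in control and between 10.3 and 16.4 CPM in deficient libraries, with a median log2 fold change of −1.73 over 7 tested. Neutrophil markers (7 genes, 3 tested) stood between 17.5 and 22.7 CPM and between 23.9 and 27.5 CPM, with a median of 0.51. Endothelial markers (7 genes, 4 tested) stood between 174 and 196 CPM and between 199.7 and 212 CPM, with a median of 0.12, and Kdr made up most of that sum. Lymphoid markers (8 genes) reached at most 1.02 CPM in any library, and none was tested. The part of the macrophage and embryonic content of the libraries in the differences of the members was not tested.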

How the data were processed

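RNA of sorted GFP+ cells was sequenced in 3 control and 3 BAF155/170-deficient samples. Per the study's methods, adapters were removed, read pairs from strand-specific poly(A) libraries were mapped to GRCm38 using STAR, and featureCounts tallied them by gene. The authors deposited these raw counts. The annotation release, the strand setting and the handling of reads that map to several places are not given in the sources used here. No column of a sample outside the labels was present.

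Counts were analysed with edgeR 4.0.16 in R 4.3.3 (filterByExpr, minimum count 10, minimum total count 15; TMM; robust quasi-likelihood fit, condition only; Benjamini-Hochberg over 13961 genes, threshold 0.1). CPM were computed on TMM-normalized library sizes, with a common biological coefficient of variation of 12.8%. The fit was also run on simulated counts whose coefficient of variation was set below this 12.8%. That run does not show how the fit performs on the present data. DESeq2 1.42.0 and limma 3.58.1 (voom) were alternatives. Names came from GENCODE M21 for 46488 of 46983 rows, exonic overlaps from the same annotation, and promoter windows from RefSeq.

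Values in every library are given for each tested member with an adjusted p of at most 0.1. They are also given for the 3 members of each group with the highest mean CPM. Irf4, Stat4, Pias3, Ptpn11 and genes named for level per length or exonic overlap were picked after their values were seen. Some genes that match the rule enter the counts and are not reported here singly. The members and lists were chosen with earlier results of these data known.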

Additional observations from a re-analysis of the deposited data

How the results depend on the processing

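Of the 67 tested members, 23 rose with the adjusted p threshold at 0.1 (edgeR) and 0 fell, a count that moved with the setting. It was 44 with DESeq2 and its size factors, 33 with limma-voom, 48 with no filter beyond 1 count in total, 18 with the length trend corrected, 7 with a mean of at least 2 CPM required, 0 with library totals in place of TMM (18 at an unadjusted p under 0.05) and 0 with libraries scaled to the macrophage markers (2 at an unadjusted p under 0.05). Leaving out each library in turn gave 0 to 48 members higher and 0 to 1 lower. No alternative but 1 gave a member past the study's thresholds: with libraries scaled to the embryonic markers 66 members were higher and 66 were called, and the medians were 1.19 for type I effectors, 1.19 for gamma effectors and 1.18 for Irf and Stat factors. With libraries scaled to the macrophage markers these medians were 0.020, 0.022 and 0.012. The cause of these shifts was not tested beyond the scaling itself.

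Deviations of libraries with the same replicate number correlated at r = 0.028, −0.034 and 0.29. Not every library correlated best with its own number, so the numbers were not taken as pairs. The column labels number the deficient libraries otherwise. By those labels control replicate 2 meets deficient replicate 1 (r = 0.26), and control replicate 3 meets deficient replicate 2 (r = 0.00042). With a block on the replicate number 48 members were higher and 1 lower (Irf4), a count that rests on a pairing the labels do not establish.

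For single members, 45 of 66 kept their direction and side of the threshold with DESeq2 and 21 newly passed it; with library totals 43 kept them and 23 no longer passed. Signs turned for low or weakly changed members. With libraries scaled to the macrophage markers the log2 fold changes of Stat6, Stat5b, Irf2, Irf3, Irf2bpl, Irf2bp2, Irf2bp1, Usp18, Ifi27l2a, Ifi35, Ifi27, Oas1c, Ifi44l, Gbp2b, Gbp8, Ifi202b and Ifi208 were −0.0036, −0.045, −0.044, −0.047, −0.18, −0.16, −0.11, −0.00027, −0.0061, −0.083, −0.061, −0.045, −0.031, −0.11, −0.071, −0.11 and −0.087, in that order. With libraries scaled to the embryonic markers Stat4 was at 0.90 and Irf4 at 0.018. Irf2bpl was at −0.0038 with limma-voom and at −0.026 with a mean of at least 2 CPM. Leaving out each library in turn gave log2 fold changes of −0.049 to 0.19 for Ifi202b, −0.054 to 0.39 for Ifi208, −0.033 to 0.063 for Irf2bpl, −0.044 to 0.38 for Ifi44l, −0.071 to 0.16 for Irf2bp2 and −0.0086 to 0.16 for Gbp2b. Depth limited the low members: Irf4 had at most 2.77 CPM in a library.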
